A study of Mus musculus with 39 samples.

Results

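The genes described here are 7 of the 23412 genes in the files: H2-Aa, H2-Ab1, H2-Eb1, Cd74, H2-DMa, H2-DMb1 and Ciita, which together make and load MHC class II molecules. They were taken by their symbols, and all 7 were found and passed the filter on low counts in both tissues. Messenger RNA was sequenced from dura mater, the tough covering of the brain, and from masseter, a jaw-closing muscle, of wild-type mice given collagenase to model pain that is felt away from the injured muscle. Neither the age of the mice nor whether each library came from its own animal is given in the labels, so each p-value speaks for the spread among these libraries only. Day 2 dura had 12 libraries from mice given 10 U of collagenase type I in the temporal muscle, which covers the side of the skull, 4 from mice given saline there (temporal saline) and 6 labelled saline with no site and titled naive (unnamed-site saline). Masseter that had itself received collagenase, in 4 injections of 0.2 to 0.5 U each, was taken at day 38 or day 52, with 3 libraries each. Masseter of mice that received those doses in the temporal muscle was taken at day 28 (3 libraries), and masseter that received saline at day 28 or day 38 (4 libraries each).

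MHC class II molecules show peptides from engulfed proteins to CD4+ T cells. The alpha and beta chains pair in the endoplasmic reticulum around the invariant chain, which blocks the groove and guides the complex to endosomes, where its last fragment is exchanged for a peptide with the help of the H2-DM heterodimer. Dendritic cells, macrophages and B cells, all of which reside in dura, carry most of these transcripts, and interferon gamma can induce them in other cells through the transactivator Ciita.

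The class II promoters carry a shared control region in which the X box is bound by the RFX complex, the neighbouring cyclic AMP element by CREB-type factors and the Y box by NF-Y, with Ciita joining the assembled proteins without binding DNA itself. The stretches are shown because class II genes answer to Ciita through this region. They run from 150 to 41 bases before the start site in the RefSeq promoter table of build GRCm38.p6, and H2-DMb2, the near copy of H2-DMb1, is set beside it. Capitals mark the Y box core TGATTGG, the X box letters (AACN followed directly by GATGATG) and, in H2-Aa, the cyclic AMP element TGACGTCA. H2-Aa lies at chr17:34287864-34287973 on the minus strand, H2-Eb1 at chr17:34305717-34305826, H2-DMb1 at chr17:34153041-34153150 and H2-DMb2 at chr17:34145099-34145208, these on the plus strand.
H2-Aa: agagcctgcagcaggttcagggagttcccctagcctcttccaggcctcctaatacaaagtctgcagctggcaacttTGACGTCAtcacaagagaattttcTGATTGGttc
H2-Eb1: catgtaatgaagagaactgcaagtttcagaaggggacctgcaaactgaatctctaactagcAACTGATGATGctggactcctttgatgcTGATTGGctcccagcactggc
H2-DMb1: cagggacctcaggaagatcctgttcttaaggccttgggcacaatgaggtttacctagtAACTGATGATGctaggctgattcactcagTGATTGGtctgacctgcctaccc
H2-DMb2: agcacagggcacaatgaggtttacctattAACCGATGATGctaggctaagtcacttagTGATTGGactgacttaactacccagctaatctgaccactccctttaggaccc

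Windows reaching from 250 bases before to 50 after the start site were searched on both strands for 4 of the 7 genes. The Y box core was found in 7.8% of all 32817 windows, and it was present in those of H2-Aa, H2-Eb1 and H2-DMb1 but in neither window of H2-DMa. The X box letters were found in 0.0609% of windows and the cyclic AMP element in 1.79%. The X box letters were written down after the sequences of these genes had been read, so their presence there is a description only. X and Y boxes stood together in 0.0213% of windows, among them those of H2-Eb1, H2-DMb1 and H2-DMb2.

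Libraries held 12.1 to 32.3 M (mega) counts. All 12 dura collagenase libraries were sequenced as paired-end reads and all 10 dura saline libraries as single-end reads, judged from the gene lengths in the files, so in dura the treatment and the read layout cannot be told apart. In masseter, saline at day 28 was single-end and the other 13 libraries were paired-end. Xist, which marks female tissue, was over 100 CPM (counts per M counts) in 6 of 12 dura collagenase libraries, in 3 of 6 libraries of unnamed-site saline and in 0 of 4 of temporal saline. Dura collagenase and temporal saline therefore also differ in sex. In masseter Xist was over 100 CPM in collagenase in the temporal muscle and saline at day 28 only, so the comparisons of these groups with day 38 also differ in sex. Summed skeletal muscle markers stood at 91713 to 166167 CPM in masseter, and summed meningeal markers at 1747 to 8372 CPM in dura against 101 to 189 CPM in masseter.

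Some libraries stood apart in ways that touch these genes. Dura collagenase libraries 1 and 7 held the neuron transcript Gad1 at 1741 and 1831 CPM, against 1.02 to 11.4 CPM in the other 10, and they were the lowest of their group for each of the 7 genes. Muscle transcripts were high in dura collagenase libraries 4, 7 and 8 (Ckm at 9400, 821 and 2651 CPM) and growth hormone in library 6 (Gh at 1093 CPM). In masseter, library 3 of saline day 28 carried summed B cell markers of 103 CPM against 1.09 to 1.81 CPM in the other 3.

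**Figure D1:**
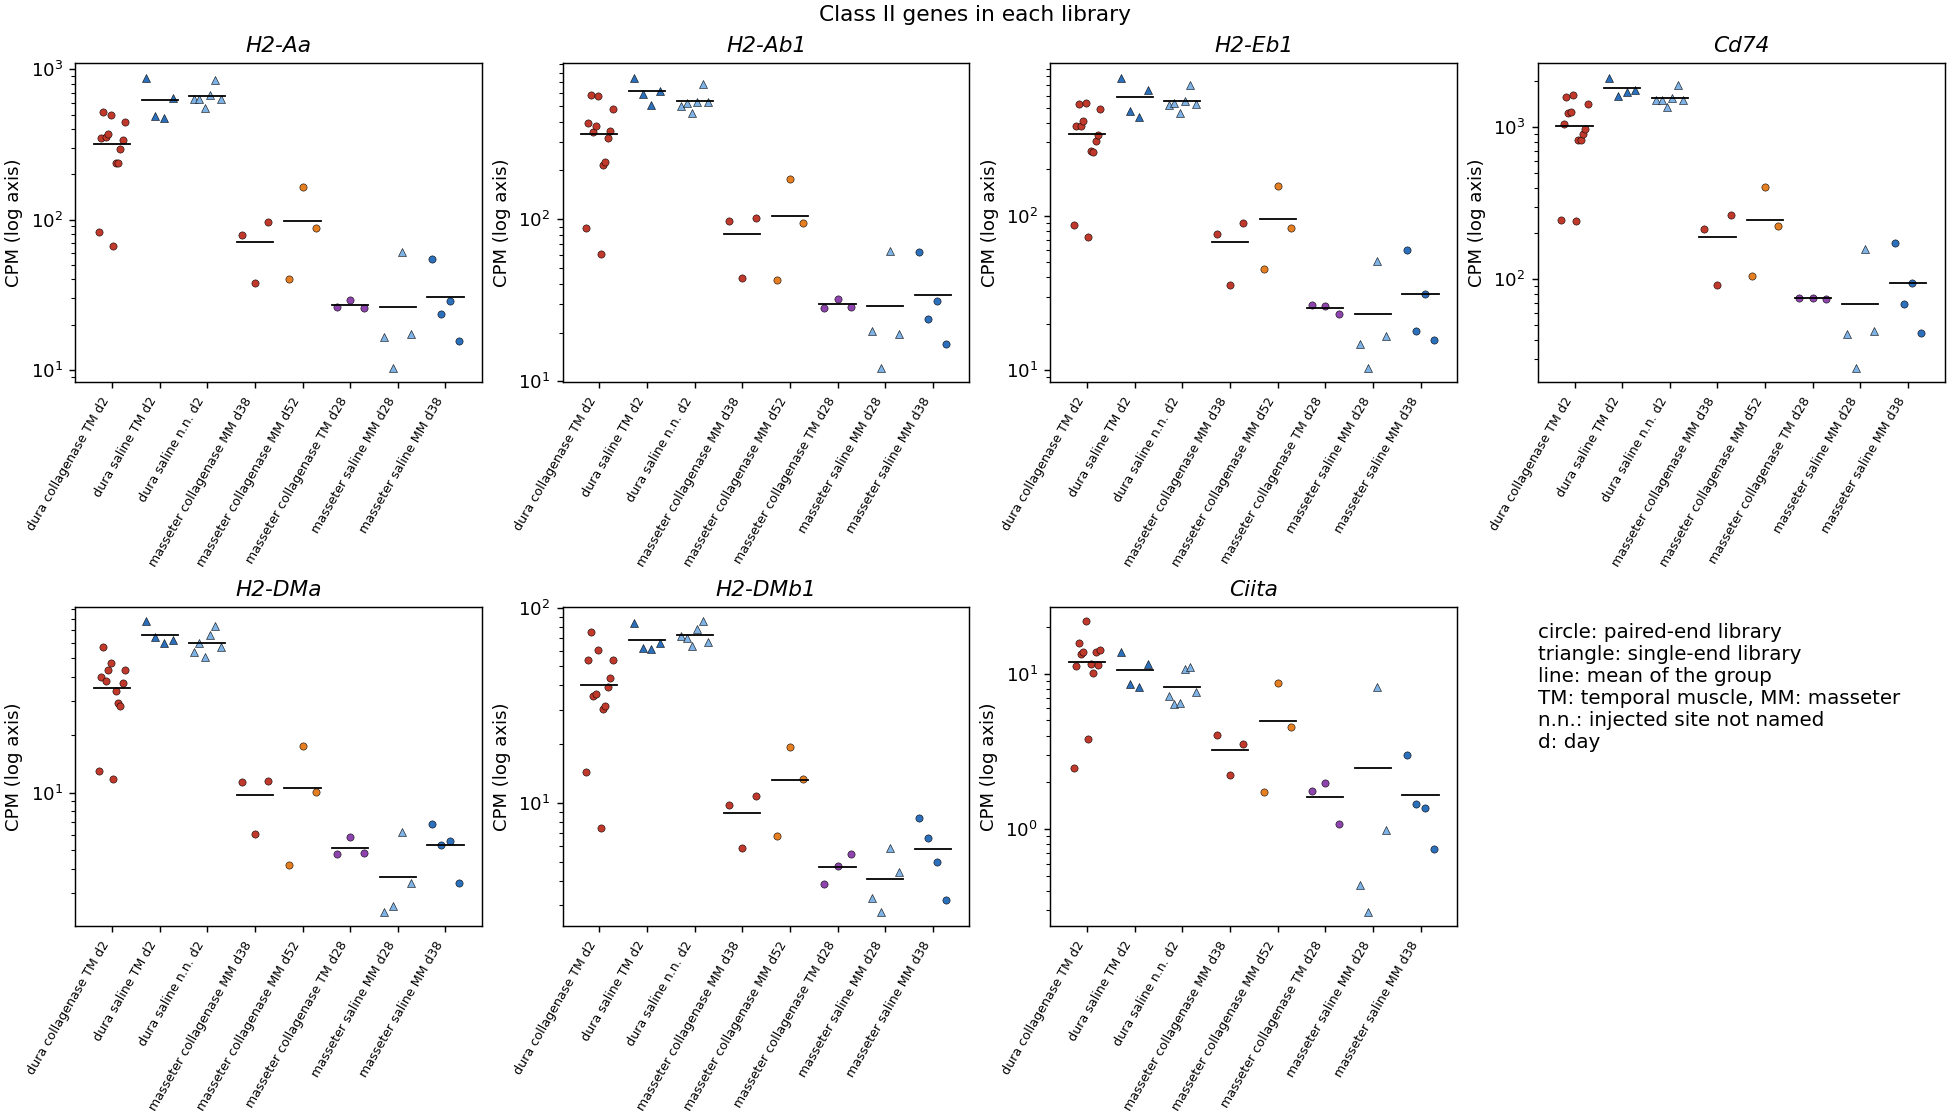
Level of each class II gene in every library, in counts per M counts (CPM, log axis, scaled within each tissue), with 1 point per library and a line at the group mean. The 10 dura controls lie mostly above the dura collagenase libraries for every gene except Ciita, and dura collagenase libraries 1 and 7 are the 2 lowest dura points in each panel.

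In dura without collagenase 6 of the 7 class II genes were higher than in masseter, by log2 3.24 to 3.89 in temporal saline. Against saline in the masseter at day 28, H2-Aa was higher by log2 3.73 ± 0.57 (SE, adjusted p = 5.64e-07, edgeR quasi-likelihood test with Benjamini-Hochberg adjustment, as throughout) in temporal saline. Cd74, the invariant chain, was higher by log2 3.89 ± 0.57 (adjusted p = 2.83e-07), and H2-DMb1, the beta chain of the exchange factor, by 3.24 ± 0.44 (adjusted p = 8.91e-08). Ciita, the transactivator, differed by 1.24 ± 0.65 (adjusted p = 0.0858) and was not called. With all 39 libraries scaled together, H2-Aa was at 482 ± 145 CPM (SD, n = 4) in dura and 36.3 ± 33.2 CPM (n = 4) in masseter, and Cd74 at 1398 ± 167 and 94.5 ± 86.5 CPM. For scale, 72.3% of all genes were called in this comparison and 38.2% were called higher in dura. With unnamed-site saline in place of temporal saline, the same 6 genes were called higher, by log2 3.20 to 3.80, with 75.0% of all genes called and 38.8% called higher. Ciita was then at 0.85 ± 0.60 (adjusted p = 0.196). Without library 3 of masseter saline day 28, Ciita differed by log2 3.42 (adjusted p = 6.73e-06) and 3.03 (adjusted p = 1.77e-05), and all 7 were then called in both comparisons. In whole tissue, more antigen-presenting cells and more RNA per cell cannot be told apart. The dura and masseter groups also differ in day (2 against 28). Xist was over 100 CPM in all masseter saline day 28 libraries and in no temporal saline library, so these groups differ in sex too.

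Per transcript, the order of the genes was the same in 7 of the 8 groups, and in masseter collagenase day 38 H2-Ab1 stood above H2-Aa. In temporal saline, TPM (transcripts per M transcripts, which corrects for length) was 2987 ± 403 for Cd74 (SD, n = 4), 1233 ± 388 for H2-Aa, 1088 ± 185 for H2-Ab1, 736 ± 211 for H2-Eb1, 112 ± 17.6 for H2-DMb1, 82.6 ± 10.8 for H2-DMa and 4.17 ± 1.09 for Ciita. The 7 genes made up 0.624 ± 0.119% of all TPM there, against 0.0234 ± 0.0191% (n = 4) in masseter saline day 28. The invariant chain stood above the beta chain H2-Ab1 in all groups, with a median ratio of TPM from 2.03 in masseter collagenase day 38 to 2.75 in dura unnamed-site saline. H2-Ea-ps, the remnant of an alpha chain gene, was at no more than 0.0521 CPM in any library.

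Ordered by mean level over the 8 groups, H2-Ab1, H2-Eb1, Cd74 and H2-DMa ran from dura temporal saline down through dura unnamed-site saline, dura collagenase, masseter collagenase day 52, masseter collagenase day 38, masseter saline day 38 and masseter collagenase in the temporal muscle to masseter saline day 28. H2-Aa and H2-DMb1 exchanged the first 2 places. Every pair of neighbours in these orders overlapped in the range of their libraries. Ciita was ordered differently, with dura collagenase first and masseter collagenase in the temporal muscle last.

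The main dura comparison asks how these genes stood in the membrane after an injury to the muscle that overlies the skull. H2-Aa and H2-DMa were lower after collagenase than in temporal saline. The other 4 genes of the loading machinery pointed the same way without passing the test, and Ciita did not. These groups differ in sex as well as in read layout, with Xist over 100 CPM in 6 of the 12 collagenase libraries and in 0 of 4 of temporal saline. In collagenase libraries with Xist the medians were 267 CPM for H2-Aa and 31.4 CPM for H2-DMa. In those without Xist they were 365 and 41.6 CPM, and the part of sex was not tested. H2-Aa, the alpha chain of the I-A molecule, ran from 66.8 CPM through a median of 342 to 523 CPM in the 12 collagenase libraries, and was at 881, 491, 471 and 642 CPM in the 4 saline libraries. Of the collagenase libraries, 10 lay below the lowest saline library and none above the highest. The log2 fold change was -0.97 ± 0.35 (SE, adjusted p = 0.0462), with group means of 317 ± 144 CPM (SD, n = 12) and 621 ± 189 CPM (n = 4).

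H2-DMa, the alpha chain of the factor that removes the invariant chain fragment, ran from 11.7 CPM through 37.6 to 57.2 CPM after collagenase. It was at 77.7, 64.0, 59.9 and 61.8 CPM in temporal saline. The groups did not overlap, and the log2 fold change was -0.91 ± 0.26 (adjusted p = 0.0162). H2-DMb1, its beta partner, ran from 7.40 CPM through 37.7 to 75.4 CPM against 83.1, 62.3, 61.4 and 65.9 CPM, a log2 difference of -0.76 ± 0.34 (adjusted p = 0.0972). A single collagenase library reached into the saline range.

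The beta chains had similar values. H2-Ab1, partner of H2-Aa, ran from 61.3 CPM through 347 to 582 CPM after collagenase against 746, 588, 509 and 619 CPM (log2 -0.89 ± 0.36, adjusted p = 0.0778). H2-Eb1, the beta chain of I-E, ran from 72.8 CPM through 358 to 540 CPM against 786, 476, 438 and 657 CPM (log2 -0.80 ± 0.35, adjusted p = 0.0934). Ranges overlapped for both. Cd74 ran from 241 CPM through 1009 to 1618 CPM against 2122, 1608, 1716 and 1764 CPM, and 11 of 12 collagenase libraries lay below the lowest saline library (log2 -0.83 ± 0.33, adjusted p = 0.0732).

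Ciita ran from 2.46 CPM through 12.5 to 21.7 CPM after collagenase, and was at 13.7, 8.61, 8.21 and 11.5 CPM in temporal saline. The log2 difference of 0.18 ± 0.35 (adjusted p = 0.733) had a 95% interval from -0.51 to 0.87. The collagenase libraries lay on both sides of the saline range, 3 above it and 2 below.

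In all, 2 of the 7 genes were called and both were lower. Of all 16363 genes tested, 24.4% were called in either direction, a share close to that among the 7. The share called lower was 11.1% over all genes, below that among the 7, which rests on 2 genes. The median log2 difference was -0.83 over the 7 genes and 0.06 over all genes tested. Unadjusted, 6 of the 7 had p under 0.05, but the share of all genes under that unadjusted p was not counted, and the 7 genes vary together. The calls rested on the set of libraries: leaving out saline library 1 left 0 of 7 called, leaving out collagenase library 3 or 7 left 4, and leaving out collagenase library 2, 8, 9, 10 or 11 or saline library 2, 3 or 4 left 1. H2-Aa was the gene lost in the last of these cases (adjusted p from 0.0513 to 0.1 there), while H2-DMa was lost without saline library 1 alone (H2-DMa adjusted p = 0.0582, H2-Aa adjusted p = 0.172).

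Against unnamed-site saline, 3 of 7 genes were lower: H2-Aa, H2-DMa and H2-DMb1. H2-Aa was at 551 CPM at the lowest, 636 at the median and 844 at the highest in these 6 saline libraries, above every collagenase library (log2 -1.06 ± 0.31, adjusted p = 0.0122). H2-DMa was at 50.5, 58.4 and 73.3 CPM in the same order (log2 -0.77 ± 0.23, adjusted p = 0.0153). H2-DMb1 was at 63.6, 70.9 and 85.1 CPM (log2 -0.85 ± 0.29, adjusted p = 0.0294). For H2-DMa and H2-DMb1, 11 of 12 collagenase libraries lay below the lowest saline library.

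H2-Ab1, H2-Eb1 and Cd74 did not pass in that comparison. Their log2 differences were -0.68 ± 0.32 (adjusted p = 0.0995), -0.71 ± 0.31 (adjusted p = 0.0728) and -0.62 ± 0.30 (adjusted p = 0.103). Ciita was at 6.39 CPM at the lowest, 7.40 at the median and 11.0 at the highest, and 9 of 12 collagenase libraries lay above the highest of them (log2 0.54 ± 0.31, adjusted p = 0.176). Of all genes, 36.7% were called and 15.3% were called lower. Without unnamed-site saline library 1, 4 or 5, H2-DMb1 was not called (adjusted p from 0.0504 to 0.0637). Without collagenase library 3 or 6, H2-Eb1 was called (adjusted p = 0.0494 and 0.0492), and without collagenase library 1 Ciita was called as higher (log2 0.63, adjusted p = 0.0485). In the same comparison 10 of 10 skeletal muscle markers and 6 of 7 brain neuron and pituitary markers were higher after collagenase, with median log2 differences of 10.02 and 5.43. Summed muscle markers were at 111 to 51360 CPM after collagenase, 18.02 to 31.25 CPM in unnamed-site saline and 113 to 259 CPM in temporal saline, against which 0 of 10 muscle and 2 of 7 brain and pituitary markers were called higher. Summed brain and pituitary markers were at 194 to 4987 CPM, 273 to 462 CPM and 521 to 898 CPM in the same order, and the part of such tissue in the class II result was not tested. Both comparisons use the same 12 collagenase libraries, so they are not separate evidence.

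**Figure D2:**
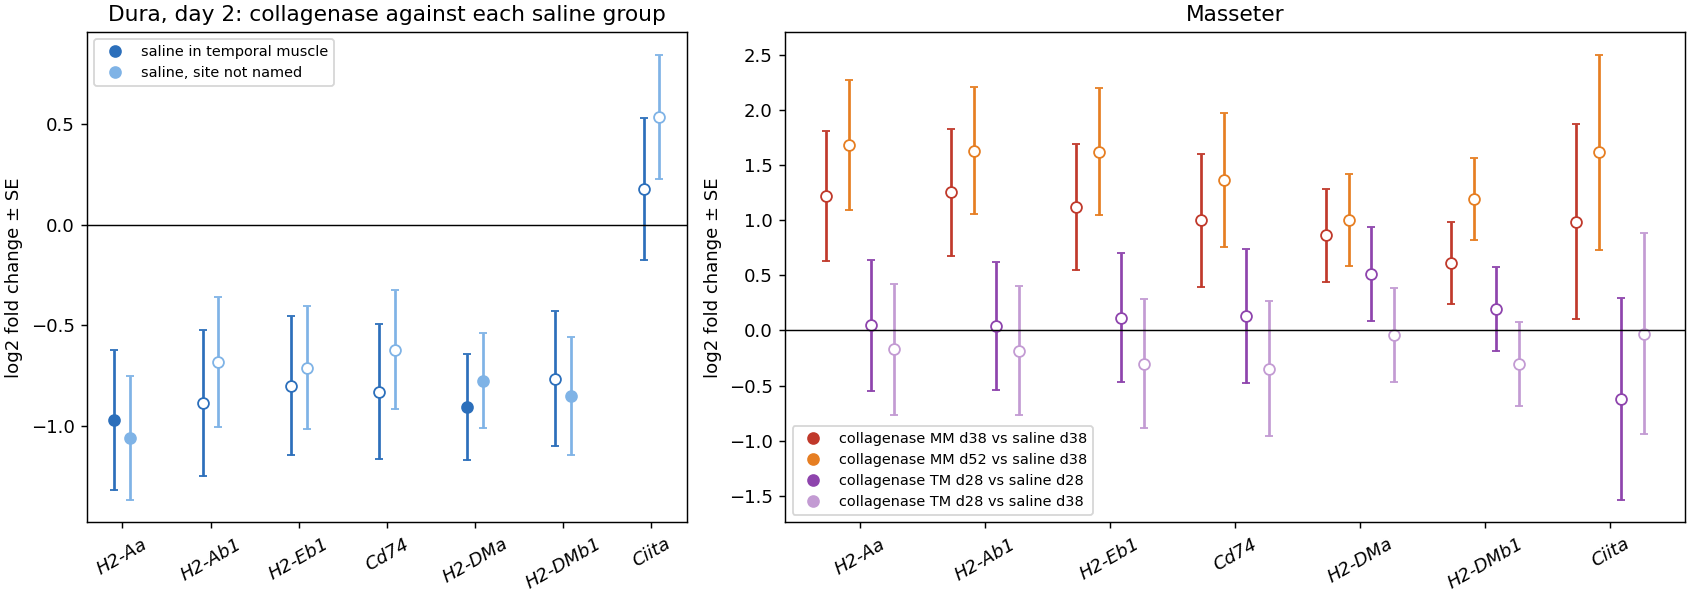
Log2 fold change with its standard error for each class II gene, in dura (left, collagenase against each saline group) and masseter (right, each collagenase group against saline), where filled points passed an adjusted p of 0.05. In dura the 6 loading genes lie between -1.06 and -0.62 and Ciita above 0, and in masseter no point is filled.

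Dura collagenase libraries 1 and 7 set the spread of that group. In the other 10 libraries H2-Aa was at 366 ± 99.0 CPM (SD) and Ciita at 13.7 ± 3.30 CPM, against 66.8 and 82.0 CPM and 3.77 and 2.46 CPM in libraries 7 and 1. Refitted without these 2 libraries, an alternative chosen after the values of the class II genes had been seen, the loading genes differed by less and were called more often. H2-Aa then stood at log2 -0.76 (adjusted p = 0.00554) and Cd74 at -0.62 (adjusted p = 0.0074) against temporal saline, and 6 of 7 genes were called, all lower. Against unnamed-site saline 6 of 7 were called, 5 lower and Ciita higher by log2 0.74 (adjusted p = 0.00277). The share of all genes called in this refit is not given here, so these counts have no background beside them. Over the alternatives other than leaving out 1 library, calls over all genes moved too. They ran from 13 to 5612 against temporal saline and from 631 to 6449 against unnamed-site saline. The brain transcripts of libraries 1 and 7 moved with low class II levels, and their part in the result was not tested.

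Since Ciita did not follow the other genes, its level relative to them was set out after the values were seen. Ciita TPM was divided by the geometric mean TPM of the other 6 genes, as a log2 ratio. The ratio was -6.15 ± 0.30 (SD, n = 12) after collagenase, -7.05 ± 0.12 (n = 4) in temporal saline and -7.33 ± 0.23 (n = 6) in unnamed-site saline. Each of the 12 collagenase libraries lay above each of the 10 saline libraries. The difference was 0.90 against temporal saline and 1.19 against unnamed-site saline, and 0.91 and 1.19 without libraries 1 and 7. These are a description with no test, because the ratio was formed from the values it describes.

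The collagenase and saline libraries also differ in read layout in this ratio. Masseter saline day 28 is the single-end group there, and its libraries 1, 2 and 4 were at -6.63, -6.68 and -5.69, with library 3 at -4.00. The paired-end masseter libraries ran from -6.21 to -5.43, so 2 of the 4 single-end libraries lay below all of them. Masseter saline day 38 differed from day 28 by -0.13 with all libraries and by 0.45 without library 3. In dura the layout cannot be told apart from collagenase.

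**Figure D3:**
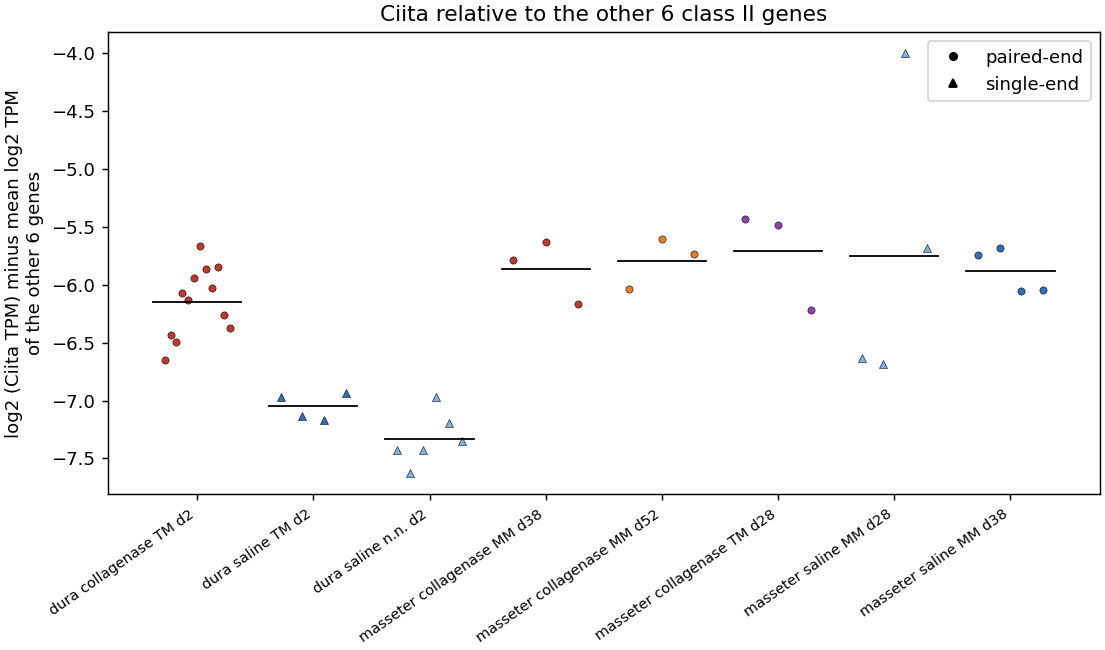
Log2 ratio of Ciita TPM to the geometric mean TPM of the other 6 class II genes in each library, with circles for paired-end and triangles for single-end libraries and a line at the group mean. All 12 dura collagenase libraries lie above the 10 dura controls, and library 3 of masseter saline day 28 is the highest point at -4.00.

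None of the 7 genes was called between the 2 dura saline groups in edgeR's quasi-likelihood test. Log2 differences ran from -0.36 for Ciita to 0.09 for H2-Aa, with adjusted p from 0.653 to 0.929 and 0 of 7 at an unadjusted p under 0.05, while 4.25% of all genes were called. DESeq2 called 0 of 7 as well. Within unnamed-site saline, the log2 differences between the 3 libraries titled F and the 3 titled M ran from -0.55 to -0.16, and none was called (adjusted p from 0.477 to 0.623, 2 of 7 at an unadjusted p under 0.05, 0 by DESeq2). In that comparison 0.0385% of all genes were called. For Ciita the 3 F libraries, at 7.19, 6.39 and 6.45 CPM, lay below the 3 M libraries at 10.7, 11.0 and 7.60 CPM. Within libraries with Xist alone, collagenase against unnamed-site saline gave log2 -1.17 for H2-Aa (adjusted p = 0.0592), and within those without Xist -0.97 (adjusted p = 0.195). None of the 7 genes was called in either set of libraries.

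Among 17 tested genes of the rest of the class II pathway, 4 were higher and 5 lower after collagenase than in temporal saline, and 3 higher and 5 lower against unnamed-site saline. Of all genes, 24.4% and 36.7% were called in these comparisons. H2-Oa and H2-Ob, the chains of the H2-O heterodimer that restrains H2-DM and is best known from B cells, were lower in both comparisons. H2-Ob was at 3.16 ± 1.23 CPM after collagenase (SD, n = 12), 7.24 ± 1.24 CPM (n = 4) in temporal saline and 5.94 ± 1.81 CPM (n = 6) in unnamed-site saline. Its log2 fold changes were -1.19 ± 0.30 (adjusted p = 0.00594) and -0.91 ± 0.27 (adjusted p = 0.0131). Nfya and Nfyb, subunits of the Y box factor NF-Y, were higher in both, Nfyb by log2 0.41 ± 0.10 (adjusted p = 0.00766) and 0.43 ± 0.09 (adjusted p = 0.00124). Rfxap, a subunit of the RFX complex, was higher by 1.03 ± 0.23 (adjusted p = 0.00276) and Rfxank, another, lower (log2 -0.65 ± 0.16, adjusted p = 0.00585) against temporal saline. Ctss, the protease that trims the invariant chain, was at 137 ± 42.1 CPM after collagenase and 162 ± 18.8 CPM in temporal saline (log2 -0.24 ± 0.21, adjusted p = 0.423).

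Markers of cells that carry class II were counted in dura too. Over all genes, 24.4% were called and 11.1% called lower against temporal saline, and 36.7% and 15.3% against unnamed-site saline. Of 10 B cell markers 0 were higher and 9 lower against temporal saline, and 6 were lower against unnamed-site saline. Their summed level was 13.5 to 56.9 CPM after collagenase, 104 to 124 CPM in temporal saline and 57.9 to 77.3 CPM in unnamed-site saline, with 0 to 1 of 10 listed at 0. Of 19 macrophage and monocyte markers 1 was higher and 5 lower in the first comparison, and 0 higher and 11 lower in the second. Their sum was 636 to 2040 CPM after collagenase against 1786 to 1951 CPM in temporal saline and 1882 to 2907 CPM in unnamed-site saline. Cd68, a lysosomal protein of macrophages, was lower (log2 -1.17 ± 0.23, adjusted p = 8.15e-04) against temporal saline. Of 15 dendritic cell markers 1 was lower in the first comparison, a smaller share than among all genes. In the second 7 were lower, among them Itgax at -0.81 ± 0.29 (adjusted p = 0.0327). The part of these cells in the class II result was not tested.

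Interferon gamma itself was hardly seen, with Ifng at no more than 0.683 CPM in any of the 39 libraries. Of 20 tested genes of its pathway, 1 was higher and 0 lower against temporal saline (Jak2, the receptor's kinase, log2 0.47 ± 0.16, adjusted p = 0.0372). Against unnamed-site saline 0 were higher and 2 lower, the GTPases Igtp and Irgm1. Of 21 class I genes, 1 was higher and 1 lower in the first comparison, and 1 higher and 7 lower in the second. Psmb9, an immunoproteasome subunit, was among the 7 (log2 -0.90 ± 0.25, adjusted p = 0.00913). For scale, 24.4% of all genes were called in the first comparison and 36.7% in the second.

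In the masseter that had itself been injected, each of the 7 genes had a higher mean after collagenase than after saline at day 38, and none passed the test. At day 38 H2-Aa was at 78.4, 37.5 and 96.4 CPM after collagenase and at 54.3, 23.6, 28.5 and 15.5 CPM after saline. The groups overlapped, with 2 of 3 collagenase libraries above the highest saline library (log2 1.22 ± 0.59, adjusted p = 0.299). Cd74 was at 213, 91.7 and 264 CPM against 174, 68.1, 94.2 and 44.1 CPM (log2 1.00 ± 0.60, adjusted p = 0.408). Over the 7 genes the log2 differences ran from 0.61 to 1.25, with adjusted p from 0.274 to 0.594. The background was 0.867% of all genes called, and 1 of 7 had an unadjusted p under 0.05, with 0 by DESeq2.

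At day 52 H2-Aa was at 40.1, 164 and 88.3 CPM. The first of these libraries lay inside the saline range and the second was the highest of all masseter libraries. Against saline day 38, the nearest saline group in time, H2-Aa differed by log2 1.68 ± 0.59 (adjusted p = 0.186). H2-DMb1, at 6.80, 19.3 and 13.3 CPM against 8.35, 6.61, 4.98 and 3.20 CPM, had the smallest adjusted p of the 7 (log2 1.19 ± 0.37, adjusted p = 0.143). Differences ran from 1.00 to 1.68, and 6 of 7 had an unadjusted p under 0.05. The share of all genes under that unadjusted p was not counted, and the 7 genes vary together, so these are not separate results. None of the 7 was called, where 0.758% of all genes were, and DESeq2 called 1, H2-DMb1 (adjusted p = 0.0465).

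Day 52 and day 38 were not told apart. Log2 differences ran from 0.14 to 0.63 with adjusted p from 0.466 to 0.904, and 0 of 7 had an unadjusted p under 0.05, as with 0 calls by DESeq2. Only 0.0956% of all genes were called between these days. For H2-Aa the 95% interval ran from -0.77 to 1.70, which spans differences in both directions.

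Summed markers of dendritic cells, macrophages and B cells had higher means in the injected masseter at both days than in saline day 38. For dendritic cells the sums were 63.1 to 99.4 CPM at day 38 and 60.5 to 128 CPM at day 52, overlapping the 51.3 to 76.2 CPM of saline. Cd209a, a lectin of dendritic cells, rose by log2 2.10 ± 0.36 (adjusted p = 0.0161) at day 52, from 1.54 ± 0.71 CPM (SD, n = 4) to 6.66 ± 2.17 CPM (n = 3), and was the only gene called of 15 dendritic cell markers. None of 19 macrophage markers was called at either day. Their summed level was 160 to 384 CPM at day 38 and 216 to 460 CPM at day 52, against 113 to 263 CPM in saline day 38. Summed B cell markers were at 4.52 to 6.73 CPM at day 38 and 2.87 to 14.9 CPM at day 52, against 1.12 to 2.17 CPM. Of 7 B cell markers tested, 0 were called at either day. For scale, 0.867% of all genes were called at day 38 and 0.758% at day 52. Ctss was at 36.1 ± 13.9 and 37.5 ± 21.7 CPM against 9.79 ± 4.13 CPM, without a call (adjusted p = 0.0928 and 0.103).

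Masseter taken after collagenase in the temporal muscle, the site from which pain is referred, had class II levels within the range of both saline groups for every gene, at day 28 through library 3 of saline. H2-Aa was at 26.2, 29.1 and 25.8 CPM, and Cd74 at 75.0, 74.9 and 74.4 CPM. Against saline day 28 the log2 differences ran from -0.62 for Ciita to 0.51 for H2-DMa (adjusted p from 0.515 to 0.977), where 2.95% of all genes were called. Against saline day 38 they ran from -0.35 to -0.03 (adjusted p from 0.682 to 0.991), where 10.9% were. In both, 0 of 7 had an unadjusted p under 0.05 and DESeq2 called 0. The 95% interval of H2-Aa against saline day 28 ran from -1.12 to 1.21. In saline day 28 without library 3, H2-Aa was at 10.3 to 17.3 CPM and Cd74 at 26.0 to 45.4 CPM, and for each gene except H2-DMb1 these 3 libraries lay below all 3 of collagenase in the temporal muscle. The share of all genes separated in this way was not counted, and the 7 genes vary together. These 2 groups also differ in read layout, single-end in saline day 28 and paired-end in the other. The log2 difference was then 0.89 for H2-Aa (adjusted p = 0.291), 0.97 for Cd74 (adjusted p = 0.268), 0.91 for H2-DMa (adjusted p = 0.192) and 1.51 for Ciita (adjusted p = 0.159), with 0 of 7 called.

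All 3 of these libraries lay below all 3 of the masseter injected with collagenase at day 38 for each of the 7 genes. The 7 genes vary together across libraries, so these are not 7 separate results. Log2 differences ran from -1.43 for H2-Ab1 to -0.90 for H2-DMa, 4 of 7 had an unadjusted p under 0.05, and none passed after adjustment (adjusted p from 0.16 to 0.561, 0 by DESeq2). The shares of all genes separated in this way, or under that unadjusted p, were not counted. Of all genes, 11.7% were called. These groups differ in day and in sex as well as in the injected site. Fitted with the 2 groups alone, H2-Aa, H2-Ab1 and H2-Eb1 were called lower (adjusted p from 0.0296 to 0.0365). Each was called in that 1 of 9 alternatives only, and in 0 of 6 fits leaving out 1 library. Over those 9 alternatives calls over all genes ran from 1178 to 2353, against 1719 in the main fit. The share called in the fit of the 2 groups alone is not given here. Of 15 tested genes of the rest of the class II pathway, 1 was lower and 1 higher. These were Ctss (log2 -1.99 ± 0.57, adjusted p = 0.0375) and Nfyb (log2 0.41 ± 0.08, adjusted p = 0.00627). Of 19 macrophage and monocyte markers 0 were higher and 3 lower. These 3 were C1qa, C1qb and C1qc, the complement chains of macrophages, by log2 -1.74 to -1.47.

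None of the 7 genes was called between the 2 masseter saline groups, with log2 differences from -0.59 to 0.55 for day 38 against day 28 (adjusted p from 0.31 to 0.798, 0 of 7 at an unadjusted p under 0.05, 0 by DESeq2). Here 24.6% of all genes were called, between groups that differ in read layout, day and sex. Library 3 of saline day 28 was the high point for each of the 7 genes. H2-Aa was at 16.6, 10.3, 60.5 and 17.3 CPM in libraries 1 to 4, and Ciita at 0.437, 0.294, 8.18 and 0.985 CPM. Without library 3 the difference of saline day 38 from day 28 turned from -0.59 to 1.53 for Ciita (adjusted p = 0.0755) and went from 0.22 to 1.05 for H2-Aa (adjusted p = 0.121) and from 0.48 to 1.31 for Cd74 (adjusted p = 0.0722), with 0 of 7 called.

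That library also held transcripts of B cells. Their 10 markers summed to 103 CPM, with Cd79a, a subunit of the B cell receptor, at 19.2 CPM. H2-Ob was at 10.9 CPM and H2-Eb2 at 3.14 CPM. H2-DMb2, the near copy of H2-DMb1, was at 5.91 CPM, equal to the 5.91 CPM of H2-DMb1 itself, where the other 16 masseter libraries had at most 0.909 CPM of it. T cell markers summed to 48.4 CPM there and to 45.9 CPM in library 2, whose class II levels were the lowest of the group for 6 of the 7 genes. The part of these cells in the class II level was not tested.

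**Figure D4:**
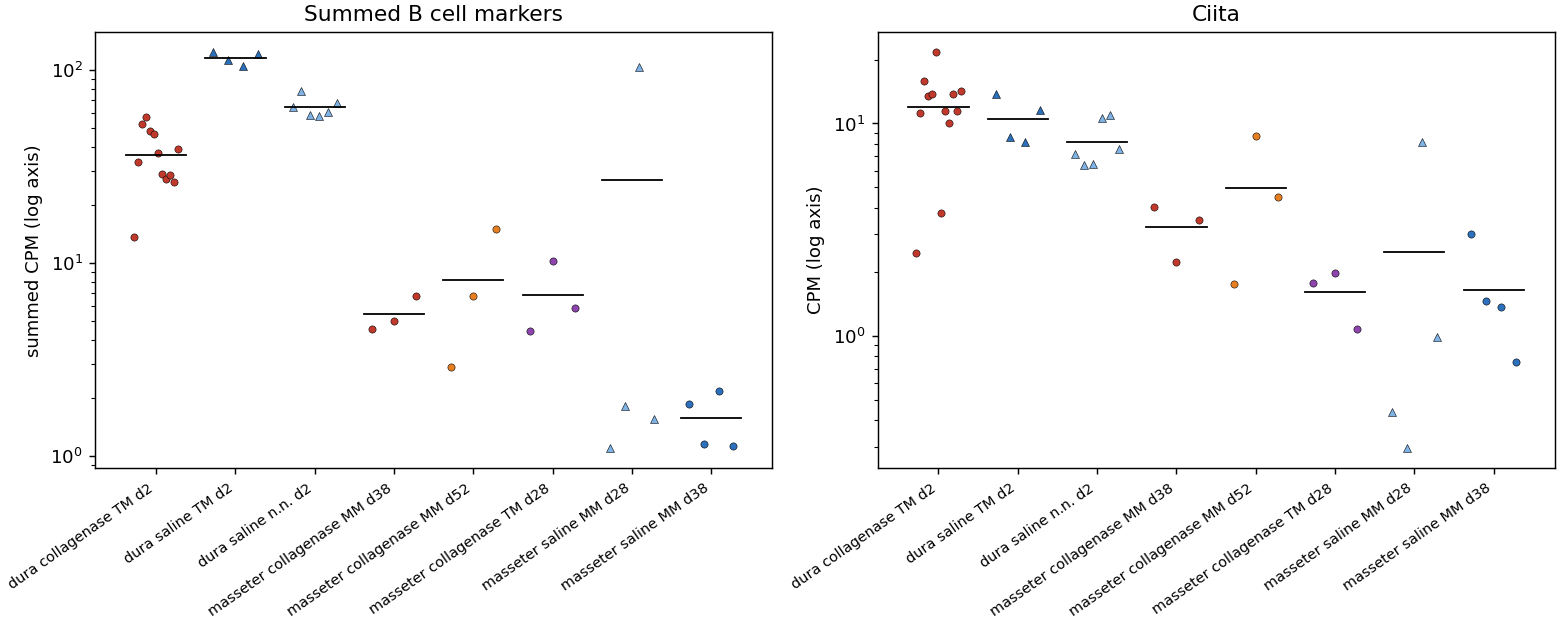
Summed level of 10 B cell markers (left) and level of Ciita (right) in each library, in CPM on log axes, with circles for paired-end and triangles for single-end libraries. Library 3 of masseter saline day 28 stands at 103 CPM and 8.18 CPM, above the other 3 libraries of its group.

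Across libraries the 7 genes varied together. Taken as deviations of log2 CPM from the group mean, their pairwise Pearson correlations ran from 0.863 to 0.997 over 22 dura libraries and from 0.779 to 0.996 over 17 masseter libraries, given without a test because libraries share depth, cell content and, in dura, the 2 low libraries. The genes most like the mean of the 7 in dura were Rnase4 (0.984), Psmb8 (0.977), H2-Q4 (0.973), Irf1 (0.972), Ccr2 (0.971), Gsdmd (0.969), Tnfrsf1b (0.968), Unc93b1 (0.967), Cd48 (0.966) and Elf4 (0.966). Gad1 stood at -0.875. In masseter they were Rab37 (0.959), Bcl2a1d (0.955), Ctss (0.953), Cd180 (0.943), Epsti1 (0.939), Slamf8 (0.938), Fgd2 (0.934), Inpp5d (0.933), Rgs10 (0.928) and Snx20 (0.925), several of them below 1 CPM.

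H2-DMb1 and H2-DMb2 share sequence: 27.2% of the 50-base stretches of H2-DMb1's transcripts occur in H2-DMb2, and none of the other 6 genes shares any with it. How the estimated counts divide reads between the pair is therefore uncertain. H2-DMb2 itself ran from 0.447 CPM through 2.32 to 6.51 CPM after collagenase in dura and was at 9.85, 6.62, 7.08 and 7.93 CPM in temporal saline. The groups did not overlap (log2 -1.41 ± 0.40, adjusted p = 0.0124).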

How the data were processed

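Libraries were grouped by their treatment and time labels. Per the labels' protocols, mRNA was selected with oligo-dT beads and strand-marked libraries were read on a HiSeq or a NovaSeq instrument. The submitters' processing notes name bcl2fastq, Trim Galore, RSEM and the build mm10; the versions, the aligner, the annotation and how strand was handled have no source here. The authors deposited RSEM expected counts per gene, which are not scaled between libraries and need not be whole, and TPM, per the file headers. FPKM values were also deposited and were not used. Layout was read from length minus effective length (49.5 bases in single-end and 212.5 to 237 in paired-end libraries). Counts were rounded and fitted per tissue in edgeR 4.0.16 (R 4.3.3): filterByExpr, TMM, quasi-likelihood test, Benjamini-Hochberg adjustment, called under 0.05. A robust fit was run first; the default was then taken, after the counts of genes called had been seen, to match earlier processing of these data. Shares of all genes called refer to the adjusted p, and no such share was counted for an unadjusted p in any comparison. CPM use TMM-scaled library sizes, and SE comes from the F statistic. Other genes were named from fixed lists, up to 6 called genes per list and comparison by p; Cd79a, Ckm, Gh, Xist, Ctss, H2-Ob, H2-Eb2, H2-Ea-ps and Ifng values were chosen after they were seen. Genes most like the 7 are the 10 with the highest correlation, without predicted genes. The 7 genes, the lists and the tests were chosen with earlier results of these data known. DESeq2 1.42.0 and limma 3.58.1 served as alternatives. The count test was also run on simulated data, whose outcome is not given here. Those data held no libraries standing apart and no difference in read layout. Of 108 pairs of replicates none agreed within sampling noise (chi-square per gene 13.4 to 507). Of 23412 symbols, 21563 matched a RefSeq gene of the same build. Intervals cover the spread between libraries only.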

Additional observations from a re-analysis of the deposited data

Results flagged for a closer look

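Within groups of 4 to 10 libraries, 28 pairs of a gene and a group were looked at for a library whose gap to its nearest neighbour was large for the range of the group, and 6 stood out; chance gives about 1 in 20. Library 3 of masseter saline day 28 accounts for 5 of them: H2-Aa at 60.5 CPM, H2-Ab1 at 63.7 CPM, H2-Eb1 at 51.3 CPM, Cd74 at 157.5 CPM and Ciita at 8.18 CPM, each above the other 3 libraries. The 5 genes were measured in the same library and are not separate events. The sixth was H2-Ab1 in library 5 of dura saline at a site not named, at 681 CPM against 450 to 530 CPM in the other 5 libraries.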

How the results depend on the processing

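Of 223 recounts of how many of the 7 genes were called, 198 stayed within 1.5 times the reported count, and no called value changed sign. These pool all comparisons, most of which had 0 called, and a 0 that stayed 0 is among the 198. The pooled figure therefore does not describe the dura comparisons with collagenase, whose counts moved as follows. For dura collagenase against temporal saline (2 called), limma voom, limma on log2(TPM + 1) or log2(TPM + 0.1), an offset for effective length and a fit of the groups alone each gave 1, and leaving out single libraries gave 0 to 4. Leaving out collagenase libraries 1 and 7, or 1, 4, 6, 7 and 8, gave 6 in both cases. Against unnamed-site saline (3 called), these gave 6 and 7, and libraries with Xist alone or without Xist alone gave 0 and 0. Day 52 masseter against saline day 38 gave 1 with DESeq2, and the 2 collagenase sites in masseter gave 3 when fitted alone. The cause was not tested. Title numbers did not pair the libraries (correlations of deviations from -0.226 to 0.324). With the number as replicate block, dura collagenase against temporal saline had 0 of the 7 and 13 genes called against 3997. That fit held only collagenase libraries 1 to 4 and the 4 of temporal saline. The effects of the block and of the fewer libraries therefore cannot be told apart. The 2 masseter saline groups, fitted alone with the block, had 0 of the 7 and 830 against 3608. Counts over all genes moved by more than 1.5 times in 79 of 223 recounts. Over the alternatives other than leaving out a library, they ran from 13 (the block fit of fewer libraries) to 5612 in the first dura comparison. They ran from 631 to 6449 (6012 reported) in the second, and from 0 to 838 (14 reported) between days 52 and 38. A robust fit gave 79 calls there and left the calls of the 7 genes as reported. Masseter groups held 3 or 4 libraries each. In dura, layout and collagenase cannot be told apart, and collagenase and temporal saline also differ in sex. H2-DMb1 shares stretches with H2-DMb2.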
